A study of Mus musculus with 41 samples.

Results

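The 29 mouse brainstem tumors of this study were ranked by a macrophage score, the mean log2(FPKM + 1) of Aif1, Csf1r, C1qa, C1qb and Tyrobp, and the 10 tumors with the highest scores were compared with the 10 with the lowest across all other genes. The tumors of both sides were thus chosen by measured values of these 5 genes in the same libraries. FPKM counts fragments for each kilobase of a transcript and for the mapped fragments of a library. The 20 tumors of both sides were taken from 29 tumors and 41 RNA-seq libraries in all. The other libraries were the 9 tumors with middle scores and 12 neurosphere cultures, which are floating cultures of neural progenitor cells.

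All tumors carried Nestin-creERT2, a tamoxifen-inducible Cre recombinase under the promoter of the neural stem cell gene Nestin, together with a Cre-dependent PDGFRαV544ins receptor (LSL-PDGFRαV544ins) and floxed Trp53 alleles (Trp53flox/flox). They differed at 1 H3f3a allele, which encodes histone H3.3. In K27M tumors (20) Cre switches on tagged H3.3 with lysine 27 changed to methionine (H3f3aLSL-K27M-Tag/+), and in WT-Tag tumors (9) tagged wild-type H3.3 (H3f3aLSL-WT-Tag/+). The control tumors therefore share the receptor and the loss of Trp53 with the K27M tumors, and the promoter is known for activity in neural progenitors, not in macrophages. RNA came from a snap-frozen piece of each tumor, so it holds the RNA of all cells in that piece. The neurospheres, from forebrain or hindbrain at embryonic stage e15.5, carried Nestin-cre and H3f3aLSL-K27M-Tag/+ or H3f3aLSL-WT-Tag/+ without the receptor and Trp53 alleles. The labels give no age for the mice with tumors.

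Macrophages of the brain are of several kinds. Microglia settle in the brain in the embryo and maintain themselves there, border macrophages line the meninges and vessels, and monocytes can enter from the blood and become macrophages inside a tumor. All of them depend on the receptor Csf1r and on the transcription factor PU.1, and they clear debris through phagocytic receptors and lysosomes. In gliomas they are often the most abundant cells that are not tumor cells.

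The 5 score genes stand for different functions of these cells. Aif1 encodes IBA1, an actin-binding protein used to stain microglia. Csf1r is the receptor for the growth factors Csf1 and Il34, C1qa and C1qb are subunits of the complement starter C1q, and Tyrobp is the adaptor DAP12 that carries signals of receptors such as Trem2.

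Scores ran without a gap from 6.15 in WT-Tag tumor 7 to 4.27 in K27M tumor 17. The 10 high tumors lay between 5.5 and 6.15 (mean 5.92 ± 0.205, SD, n = 10) and the 10 low tumors between 4.27 and 5.20 (4.79 ± 0.321, n = 10), which is 1.13 apart on average. At the upper threshold WT-Tag tumor 9 (5.5) was inside and K27M tumor 12 (5.46) outside, and at the lower threshold K27M tumor 25 (5.20) was inside and K27M tumor 22 (5.21) outside. The low tumors were not free of the signal, because the scores of the 12 cultures lay between 0.00797 and 0.168.

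**Figure D1:**
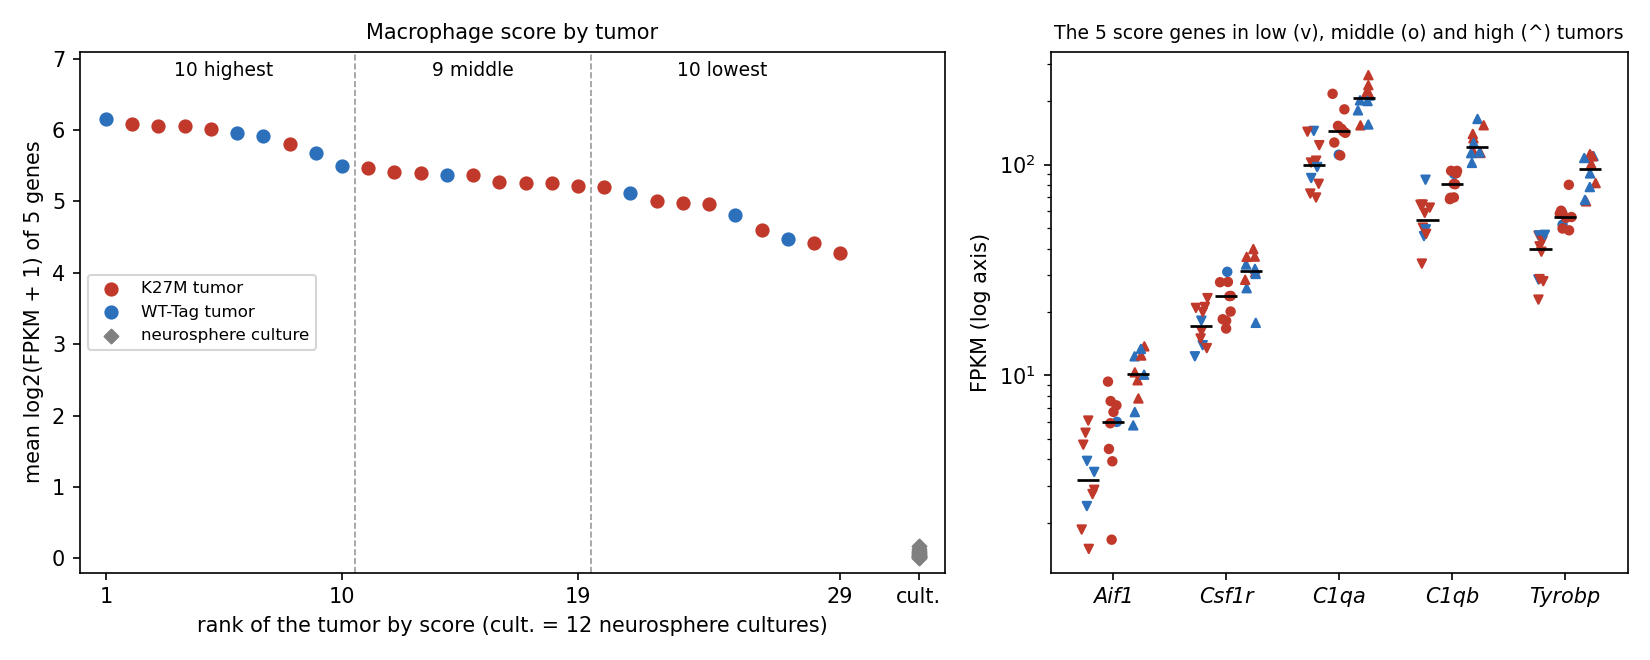
Left, the macrophage score (vertical axis, mean log2(FPKM + 1) of 5 genes) of 29 tumors by rank and of 12 neurosphere cultures at the far right, with K27M tumors in red, WT-Tag tumors in blue and cultures as grey diamonds; dashed lines mark the sides. Right, the FPKM of each score gene (log axis) in low, middle and high tumors, with bars at the medians. The scores fall gradually from 6.15 to 4.27, far above the cultures.

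The score genes chose the sides, so their values are a description. C1qa stood at 69.9, 99.9 and 145 FPKM (lowest, median and highest) in the low tumors and at 154, 207 and 266 in the high tumors. The values of C1qb were 33.9, 54.7 and 84.8 against 102, 121 and 165, and those of Tyrobp 22.9, 39.8 and 46.5 against 67.0, 95.9 and 112. For these 3 genes the sides did not overlap, and the medians differed 2.08-fold, 2.21-fold and 2.41-fold. Aif1 had the widest ratio of medians, 3.21-fold (1.5, 3.17 and 6.10 against 5.79, 10.2 and 13.7), and Csf1r the smallest, 1.83-fold (12.3, 17.2 and 23.3 against 17.8, 31.4 and 39.7). Both overlapped between the sides.

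The libraries differed in other ways too. Relative depth, recovered from the spacing of low values, had a median of 1.22 in the high tumors (0.704 to 1.75) and 1.06 in the low tumors (0.429 to 1.6). WT-Tag tumors 8 and 9, both on the high side, did not match their sex labels. Tumor 8, labelled female, had Xist at 0.031 FPKM, and tumor 9, labelled male, at 54.5. These 2 had the highest relative depths of the high side, 1.75 and 1.73. The neuron score, the mean log2(FPKM + 1) of Snap25, Syt1, Stmn2, Nefl and Gad1, was 3.31 ± 1.3 in the high and 4.91 ± 1.27 in the low tumors (SD, n = 10 each). The labels do not say that tumors of a group came from separate mice, so p-values measure the spread between these samples.

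The make-up of the sides by genotype did not differ by the test used. The high side held 5 K27M and 5 WT-Tag tumors and the low side 7 K27M and 3 WT-Tag tumors (Fisher's exact test, 2-sided, p = 0.65). Over all tumors the mean score of the 20 K27M tumors was 5.30 ± 0.523 (SD), that of the 9 WT-Tag tumors 5.44 ± 0.557, a difference of −0.14 (permutation test, 100000 resamples, 2-sided, p = 0.53). The highest and the lowest rank went to a WT-Tag and a K27M tumor, and both genotypes covered most of the range, from 4.27 to 6.09 and from 4.48 to 6.15. Without tumors 8 and 9 the difference was −0.06. By the labels, 5 of 10 high and 7 of 10 low tumors were female (Fisher's exact test, 2-sided, p = 0.65).

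Across the genes other than the 5 that made the score, limma called 665 of 15355 genes (4.33%) at an adjusted p below 0.05, 407 higher in the high tumors (2.65%) and 258 lower (1.68%). The test asks which genes go with the score in the same libraries, so other macrophage genes are not independent evidence of macrophage content. In RNA of whole tissue, fewer cells of a type and less RNA per cell cannot be told apart. FPKM is also a share of each library, so more RNA of some genes lowers the values of others. The median log2 difference of all genes was 0.08, and 9182 of the 15355 genes (59.8%) had a positive difference. Counts of positive or negative list members below are to be read beside that share. Of the called genes, 52 were higher and 72 lower by at least 1 on the log2 scale. In 54 of the higher genes (0.352% of all tested) all 10 high tumors lay above all 10 low tumors. The same held in the other direction for 1 gene (0.00651%).

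In the cultures, which are not tumor tissue, 183 of the higher genes (45.0%) stayed below 1 FPKM in every culture, against 58 of the lower genes (22.5%) and 13.5% of all genes.

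The count of calls depended on which tumors were in the sides. After leaving out K27M tumor 24, the high tumor with the most Snap25, 1578 genes were higher and 1338 lower. Without WT-Tag tumor 28 or K27M tumor 15, the low tumors with the least Snap25, the counts were 1195 and 1453, and 860 and 1098. Leaving out 1 of the other 17 tumors gave 219 to 459 higher and 58 to 322 lower genes. The higher count moved by over 1.5 times without tumors 1, 7, 8, 15, 16, 17, 20, 24 or 28, and the lower count without any tumor but 10 and 29. With relative depth as a covariate, 192 genes were higher (1.25%) and 42 lower (0.274%). With the neuron score as a covariate, 117 genes were higher (0.762% of those tested) and 3 lower (0.0195%), and with genotype as a covariate 277 were higher (1.8%) and 92 lower (0.599%). With the sides drawn again from the 27 tumors other than 8 and 9, 135 were higher (0.879%) and 4 lower (0.0261%). Within K27M tumors alone (5 against 7) 107 were higher (0.697%) and 9 lower (0.0586%). Upper quartile scaling turned the balance, with 332 higher (2.16%) and 347 lower genes (2.26%), or 48.9% higher among the calls in place of 61.2%.

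A core of 73 genes kept the call in all 20 omissions of a tumor and in each of the 18 other settings run on both genotypes or on K27M tumors (17 for 5 of the 73 genes, which did not enter 1 of them), and no lower gene did so. Of these settings, the score without Csf1r gave the same sides as the main fit, so no call could be lost there. The scores without C1qb and without Tyrobp gave the same fit as each other. The fit on WT-Tag tumors alone, 5 against 3, called 0 genes, and the differences of all 73 were positive in it. These tumors were also in the main fit that chose the 73 genes, so the signs are not separate evidence. Of the 73, 63 were below 1 FPKM in every culture, and 34 belong to 9 lists of macrophage genes that are described next. The 9 lists, like the score genes, were chosen with earlier results of these data known, so the count of 34 is a description.

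**Figure D2:**
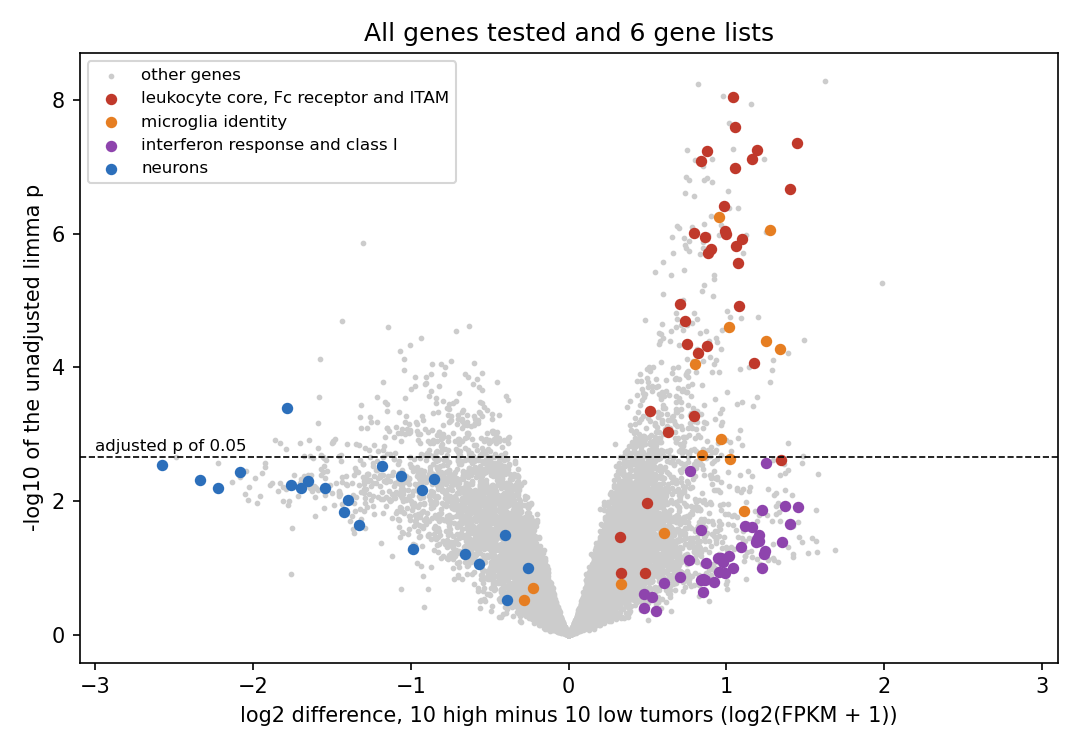
Each point is 1 of 15355 genes, by its log2 difference between high and low tumors (horizontal axis) and the −log10 of its unadjusted limma p (vertical axis), with members of 6 lists in colour and the dashed line at an adjusted p of 0.05. Leukocyte and Fc receptor genes fill the upper right, interferon and class I genes lie to the right below the line, and neuron genes lie to the left, with 1 of 22 above the line.

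Genes shared by macrophages and other leukocytes held the most calls of the lists. Of 19 members tested, 18 were higher and 0 lower, with a median log2 difference of 0.99 against 0.08 for all genes, and in 10 of them the sides did not overlap. Itgam encodes CD11b, the integrin chain of the complement receptor CR3, and stood at 2.41, 5.36 and 7.61 FPKM in the low and at 10.8, 16 and 20.4 in the high tumors (log2 difference 1.45 ± 0.18, SE; limma adjusted p = 6.85e-05). Every high tumor was above every low tumor. Ptprc, the phosphatase CD45 found on all leukocytes, went from a median of 2.13 to 6.11 FPKM, again with no overlap (1.16 ± 0.15; adjusted p = 6.85e-05). The lysosomal membrane protein gene Cd68 went from 7.97 to 19.2 (1.1 ± 0.16; adjusted p = 0.000348), and here the lowest high tumor, at 14.1, was just above the highest low tumor. Emr1, the deposited symbol of the gene for the macrophage surface protein F4/80, rose from 2.33 to 4.58 (0.80 ± 0.12).

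Mpeg1, a pore-forming protein of phagocytes, was among the genes with the largest differences (22.1 against 53.1 FPKM in the median, 1.40 ± 0.19), but the lowest high tumor overlapped with the low tumors. Ctss, the cathepsin that trims class II molecules, was the most abundant member, at 131 and 266 FPKM (1.07 ± 0.17; adjusted p = 0.000615). Cd33, a sialic acid receptor, had the smallest difference of the list (0.52 ± 0.13; adjusted p = 0.0252). Lyz2, which encodes lysozyme, was the member that missed the threshold (1.35 ± 0.39; adjusted p = 0.0512). Of these 18 calls, 15 held with the neuron covariate, 16 with the sides drawn without tumors 8 and 9 and 15 within K27M tumors, and 13 members are among the 73 genes.

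**Figure D3:**
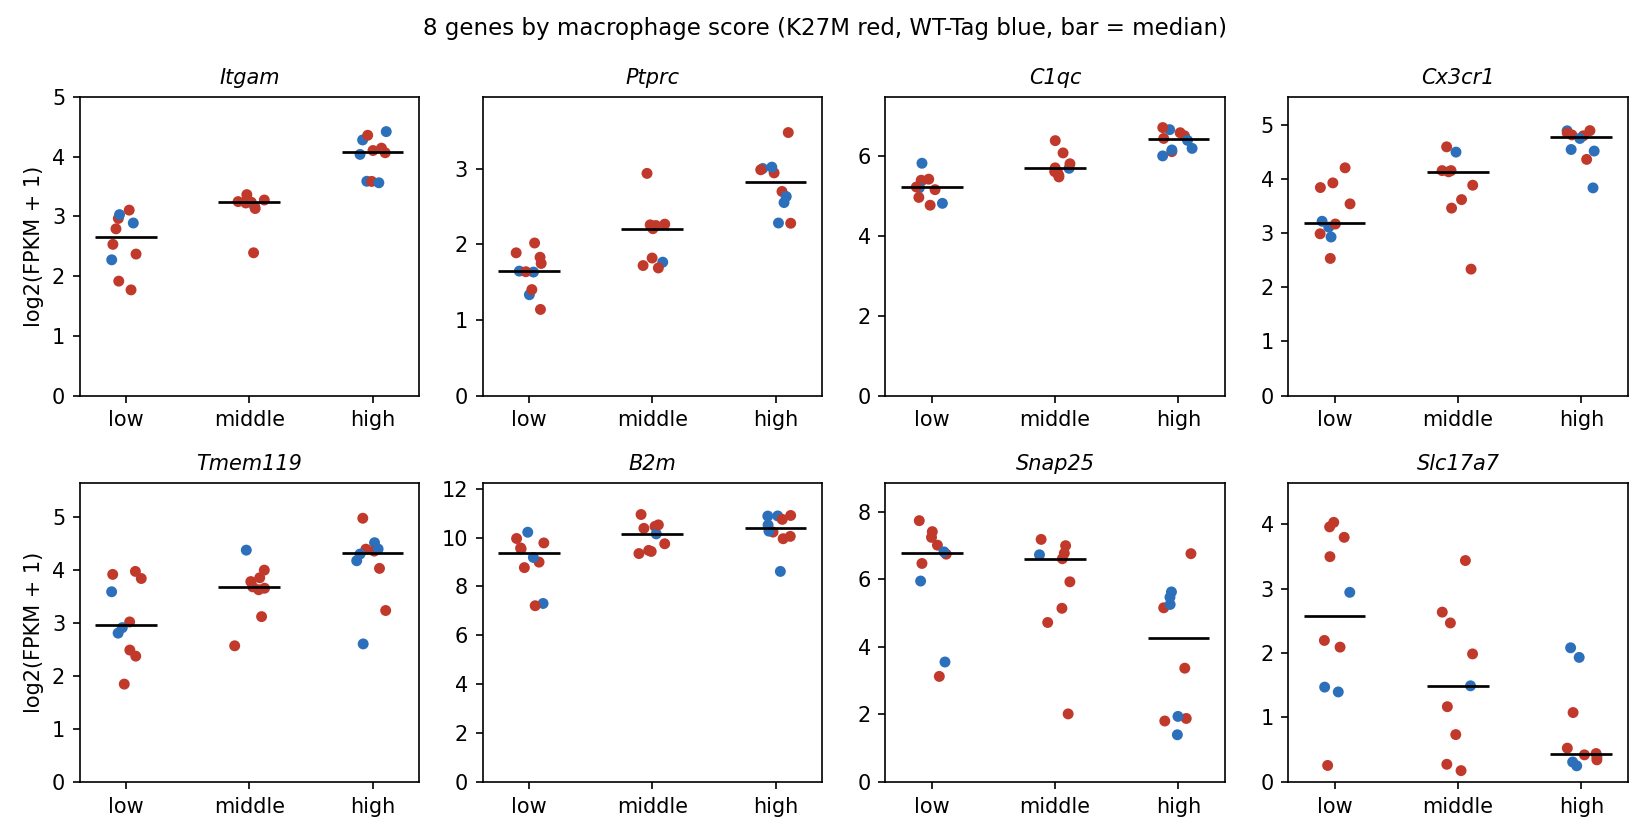
Expression of 8 genes as log2(FPKM + 1) in the 10 low, 9 middle and 10 high tumors, with 1 dot per tumor (K27M red, WT-Tag blue) and a bar at the median. Itgam, Ptprc and C1qc separate the sides, with the medians of the middle tumors in between, Cx3cr1, Tmem119 and B2m overlap, and Snap25 and Slc17a7 run the other way with wide overlap.

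Of 14 genes tested on the list for microglia identity, 8 were higher and 0 lower (median 0.96). Cx3cr1, the receptor for the neuronal chemokine fractalkine, stood at 4.78, 8.14 and 17.4 FPKM in the low and 13.3, 26.3 and 28.6 in the high tumors (1.28 ± 0.19; adjusted p = 0.000334). The lowest high value was that of WT-Tag tumor 9. Olfml3, a secreted protein of microglia, rose from 4.19 to 13.8 (1.34 ± 0.27; adjusted p = 0.00657), and the orphan receptor gene Gpr34 from 2.12 to 7.40 (1.25 ± 0.24). Cst3, the cysteine protease inhibitor cystatin C and the most abundant member, was at 570 and 454 FPKM (−0.28 ± 0.26; adjusted p = 0.48), a difference that was 0.0045 without tumors 8 and 9. The summed FPKM of the list, of which Cst3 is the largest part, had medians of 976 in the low and 928 in the high tumors. It lay between 252 and 426 in the cultures, where the score genes were near 0, so the sum is not particular to microglia.

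P2ry12, the purine receptor by which microglial processes sense injury, was at 6.66 and 13.6 FPKM in the medians (0.85 ± 0.24) and passed narrowly, with an adjusted p of 0.0492. It lost the call in 15 of the 20 omissions, with values up to 0.103, and with the genotype covariate (0.0652). Tmem119, a membrane protein used to tell microglia from blood-derived macrophages, was at 6.84 and 19.2 (1.02 ± 0.30) and missed the threshold at 0.0510. With the sides drawn without tumors 8 and 9 it passed (0.0408). WT-Tag tumor 9 had the lowest P2ry12 value of the high side, 3.04 FPKM, just under the lowest low tumor at 3.06. Without tumor 9 alone, both passed, at 0.0019 for P2ry12 and 0.0179 for Tmem119.

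Fc receptors bind antibody-coated particles and signal, like Tyrobp, through short ITAM motifs to kinases of the Src and Syk families. Of 15 genes tested in this group, 11 were higher and 0 lower (median 0.84). Fcer1g, the common signaling chain of these receptors, separated the sides at 6.48, 10.6 and 14.8 against 17.3, 21.6 and 24.6 FPKM (1.06 ± 0.12; adjusted p = 5.64e-05). The high-affinity receptor gene Fcgr1 rose from a median of 2.16 to 6.01 (1.06 ± 0.16), and Fcgr4 from 3.33 to 8.13 (1.18 ± 0.24; adjusted p = 0.00941). Genes for enzymes that restrain or relay the signal were higher as well. They included the phosphatases Ptpn6 (SHP-1; 3.16 against 6.93, no overlap, 1.06 ± 0.14) and Inpp5d (SHIP1; 3.24 against 6.51, no overlap, 0.88 ± 0.11) and the exchange factor Vav1 (1.74 against 4.03, no overlap, 0.84 ± 0.11). With the neuron covariate 7 of the 11 calls held, and with the sides drawn without tumors 8 and 9 also 7.

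Of 12 complement genes tested, 3 were higher and 0 lower (median 0.55). Positive differences were found in 8 of the 12, a share close to the 59.8% of all genes. C1qc, the remaining subunit of C1q beside the score genes C1qa and C1qb, stood at 26.1, 35.9 and 55.0 FPKM in the low and 62.6, 83.7 and 103 in the high tumors with no overlap (1.16 ± 0.13; adjusted p = 3.53e-05). C3ar1, the receptor for the C3a fragment, rose from 1.68 to 4.02 (0.86 ± 0.12; adjusted p = 0.00031). The protease gene C1ra, at 4.80 and 15 in the medians (1.19 ± 0.44), did not pass (adjusted p = 0.0963).

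Of 21 genes for lysosomes, phagocytosis and the oxidative burst, 13 were higher and 0 lower (median 0.68). Among them were subunits of the phagocyte NADPH oxidase. Ncf1, its organizing subunit, separated the sides at 1.22, 3.83 and 5.11 against 5.90, 8.52 and 11.8 FPKM (1.13 ± 0.17; adjusted p = 0.000341). Cyba, which forms the membrane part, separated them at 9.28 against 20.1 in the median (1.02 ± 0.14), and its partner Cybb rose from 1.49 to 2.76 (0.68 ± 0.17; adjusted p = 0.0256). Npc2, a cholesterol carrier of lysosomes, showed no overlap at 28.3, 33.6 and 40.9 against 44.1, 62.6 and 67.1 (0.82 ± 0.09; adjusted p = 3.49e-05), although the cultures reached 75.3 FPKM. With the neuron covariate 4 of the 13 calls held, and with the sides drawn without tumors 8 and 9 also 4. Upper quartile scaling gave 12 higher calls and 1 lower.

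Genes that microglia switch on around plaques and dying neurons, known as disease-associated microglia genes, had 9 of 19 members higher and 0 lower (median 0.86). Cst7, an inhibitor of cathepsins, had the largest difference of all genes called higher. It was at 0.682, 2.83 and 7.07 FPKM in the low and 2.29, 13.5 and 31.9 in the high tumors (1.98 ± 0.33; adjusted p = 0.00114), with overlap. Trem2, the lipid receptor that signals through Tyrobp, rose from 3.08 to 7.04 (0.96 ± 0.14; adjusted p = 0.000313). The integrin gene Itgax rose from 2.45 to 6.58 (1.39 ± 0.28), the fungal sugar receptor gene Clec7a from 3.64 to 10.1 (1.20 ± 0.22) and the protease gene Ctsz from 42.4 to 80.2 with no overlap (1.01 ± 0.14). Ctsd, an abundant lysosomal protease, was at 237 and 437 FPKM (0.86 ± 0.14; adjusted p = 0.0012). The lipid carrier Apoe was the most abundant member at 781 and 981 FPKM, and its difference of 0.41 ± 0.19 did not pass (adjusted p = 0.165). Neither did Spp1, the matrix protein osteopontin (1.07 ± 0.36; adjusted p = 0.0725). With the neuron covariate 5 of the 9 calls held.

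Of 16 chemokine and receptor genes, 5 were higher and 0 lower (median 0.60). Ccl6, a chemokine of myeloid cells that is also on the list of disease-associated microglia, rose from 1.99 to 7.11 FPKM (1.49 ± 0.29; adjusted p = 0.00526), and the receptor gene Ccr1 rose too (1.38 against 4.43, 1.1 ± 0.26; adjusted p = 0.0207). The calls of all 5 were lost with the neuron covariate, where Ccl6 had an adjusted p of 0.139. Ccl2, the chemokine that draws monocytes, ranged from 1.19 to 25.2 in the low and from 2.14 to 41.6 in the high tumors (0.50 ± 0.50; adjusted p = 0.506). Cxcl10, which draws T cells, ranged from 2.28 to 244 and from 19.4 to 530 (1.00 ± 0.71; adjusted p = 0.342).

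Receptors for microbial patterns and their targets had 5 of 16 members higher and 0 lower (median 0.58), among them Tlr7, a sensor of single-stranded RNA (2.38 against 4.35 FPKM, 0.66 ± 0.14; adjusted p = 0.0102). Casp1, the protease of the inflammasome, did not pass (11.3 against 20.5, 1.19 ± 0.47; adjusted p = 0.111). Of 15 anti-inflammatory and checkpoint genes, 3 were higher and 0 lower (median 0.56). They included Havcr2, which encodes the checkpoint receptor TIM-3 (3.31 against 7.36, 0.86 ± 0.11; adjusted p = 0.000101), and 4632428N05Rik, the deposited symbol of the gene for the checkpoint ligand VISTA (0.91 ± 0.16; adjusted p = 0.00167). Hmox1, the heme-degrading enzyme, ranged from 4.96 to 48.3 in the low and from 7.23 to 199 in the high tumors and did not pass (1.46 ± 0.58; adjusted p = 0.113), nor did Lgals9, a ligand of TIM-3 (1.03 ± 0.40; adjusted p = 0.103).

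Transcription factors of myeloid cells had 5 of 13 members higher and 0 lower (median 0.34). Sfpi1, the deposited symbol of the gene for PU.1, was at 0.981, 1.35 and 2.51 FPKM in the low and 2.05, 3.05 and 4.28 in the high tumors (0.73 ± 0.12; adjusted p = 0.000769). Ikzf1, the zinc finger factor Ikaros, separated the sides at 0.826 against 1.88 in the median (0.66 ± 0.10; adjusted p = 0.000464). Irf5, an interferon regulatory factor, passed as well (0.77 ± 0.20; adjusted p = 0.0364). Irf8, which pairs with PU.1 on DNA and is needed for microglia, was at 6.70 and 16 in the medians but reached 33 in 1 low tumor (0.83 ± 0.31; adjusted p = 0.0946).

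PU.1 binds purine-rich sites with the core letters GAGGAAGT. These letters, on either strand, stood in the promoter window of RefSeq (250 bases before to 50 after the gene start, build GRCm38.p6) of 3.69% of 27025 genes in the promoter table and of 3.37% of the tested genes found there. Among higher genes 40 of the 272 found held them (14.7%), among lower genes 3 of 175 (1.71%), and among the 73 core genes 11 of the 53 found (20.8%). Of the genes named by the rule for the text, 3 of 88 held them (3.41%). The composite site of IRF8 and PU.1, on either strand, stood in 5.15% of the higher, 4.0% of the lower and 3.16% of all genes of the table. A match is a description of the letters and not of binding, which was not analysed here. Of the score genes, Aif1 and C1qb were found and held neither motif; Csf1r, C1qa and Tyrobp had no entry.

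The 4 windows below are of core genes described here, 1 each for complement, the phosphatase SHIP1, the exchange factor Vav1 and the checkpoint receptor TIM-3, and were chosen because the PU.1 letters, in capitals, lie before the gene start. Each is 90 bases of the gene's own strand, 5′ to 3′. The C1qc window ends 161 bases before the start and holds the letters of the opposite strand, and the other 3 end right before it.
C1qc, chr4:136893075-136893164, minus strand: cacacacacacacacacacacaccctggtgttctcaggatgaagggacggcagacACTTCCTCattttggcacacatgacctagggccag
Inpp5d, chr1:87620222-87620311, plus strand: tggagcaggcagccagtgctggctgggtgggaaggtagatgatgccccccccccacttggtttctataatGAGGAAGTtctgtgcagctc
Vav1, chr17:57279010-57279099, plus strand: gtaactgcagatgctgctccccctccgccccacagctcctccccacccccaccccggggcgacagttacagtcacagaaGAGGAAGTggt
Havcr2, chr11:46454841-46454930, plus strand: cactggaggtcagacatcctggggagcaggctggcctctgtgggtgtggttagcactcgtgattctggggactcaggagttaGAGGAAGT

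The growth factors that keep macrophages alive did not pass the test. Csf1 was at 6.45, 14.1 and 27.4 FPKM in the low and 10.1, 23.5 and 33.6 in the high tumors, and its difference of 0.66 ± 0.21 did not pass (adjusted p = 0.0622). Il34, the other ligand of Csf1r, was at 4.63 and 5.07 in the medians (−0.07 ± 0.20; adjusted p = 0.831). Of the 9 genes tested on this axis, 2 were higher and 0 lower (median 0.23). They were Csf3r, the receptor for the granulocyte growth factor (1.45 against 3.39, 0.75 ± 0.17; adjusted p = 0.0147), and Csf2rb, the shared chain of the GM-CSF and IL-3 receptors (0.60 ± 0.16; adjusted p = 0.0363). Flt3, the receptor of dendritic cell precursors, was at 1.57 and 0.522 (−0.67 ± 0.20; adjusted p = 0.0583).

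Markers of other macrophages had few calls. Of 14 genes for border and perivascular macrophages 5 passed the filter on low values, and 1 was higher, Siglec1, a sialic acid receptor (0.79 against 2.51 FPKM, 0.79 ± 0.16; adjusted p = 0.00941). Of these 5, 4 had positive differences and 1 a negative difference (median 0.42). The mannose receptor gene Mrc1 was at 1.06 and 0.603 (−0.31 ± 0.11; adjusted p = 0.0839), and Cd163 had a median of 0.205 FPKM on both sides. In the list for monocytes and recruited macrophages, 12 of 13 genes tested had positive differences (median 0.57) and 1 was higher, the calcium-binding protein gene S100a6 (122 against 255, 1.07 ± 0.29; adjusted p = 0.0386), which stood at 7.97 FPKM or less in the cultures. Ifitm3, an interferon-induced membrane protein, had the largest difference of that list and did not pass (115 against 374, 1.34 ± 0.53; adjusted p = 0.111). The summed FPKM of the list ran from 306 to 1728 with a median of 578 in the low and from 717 to 1704 with a median of 1276 in the high tumors, and reached 1041 in the cultures. Its part in the results was not tested. Ccr2, the receptor that guides monocytes, had medians of 0.138 and 0.224 FPKM and was not tested, and Arg1 medians of 0.201 and 0.357.

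Few markers of T cells, B cells and neutrophils passed the filter on low values. Of 20 T and NK cell genes 1 passed, of 9 B cell genes 1, and of 16 genes of neutrophils and mast cells 0. The T cell receptor chain gene Cd3e did not exceed 0.041 FPKM in the low and 0.231 in the high tumors, and Ly6g of neutrophils 0.098 and 0.293. The medians of Cd3d, Cd3g and Cd8a were also higher in the high tumors, at 0.063 FPKM or less. Trac, of the same list, went the other way, with medians of 0.736 in the low and 0.219 in the high tumors. It reached 2.09 and 0.822 FPKM. S100a8, an abundant protein of neutrophils and monocytes, had medians of 0.325 and 0.964 but reached 8.03 FPKM in a low and 8.29 in a high tumor. The summed FPKM of the 16 neutrophil and mast cell genes ran from 0.819 to 22.5 in the low and from 0.525 to 21.1 in the high tumors. The summed FPKM of the 20 T and NK cell genes ran from 1.05 to 8.74 in the low and from 2.60 to 9.57 in the high tumors, with no gene at 0 in all tumors, and the part of these cells in the results was not tested.

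**Figure D4:**
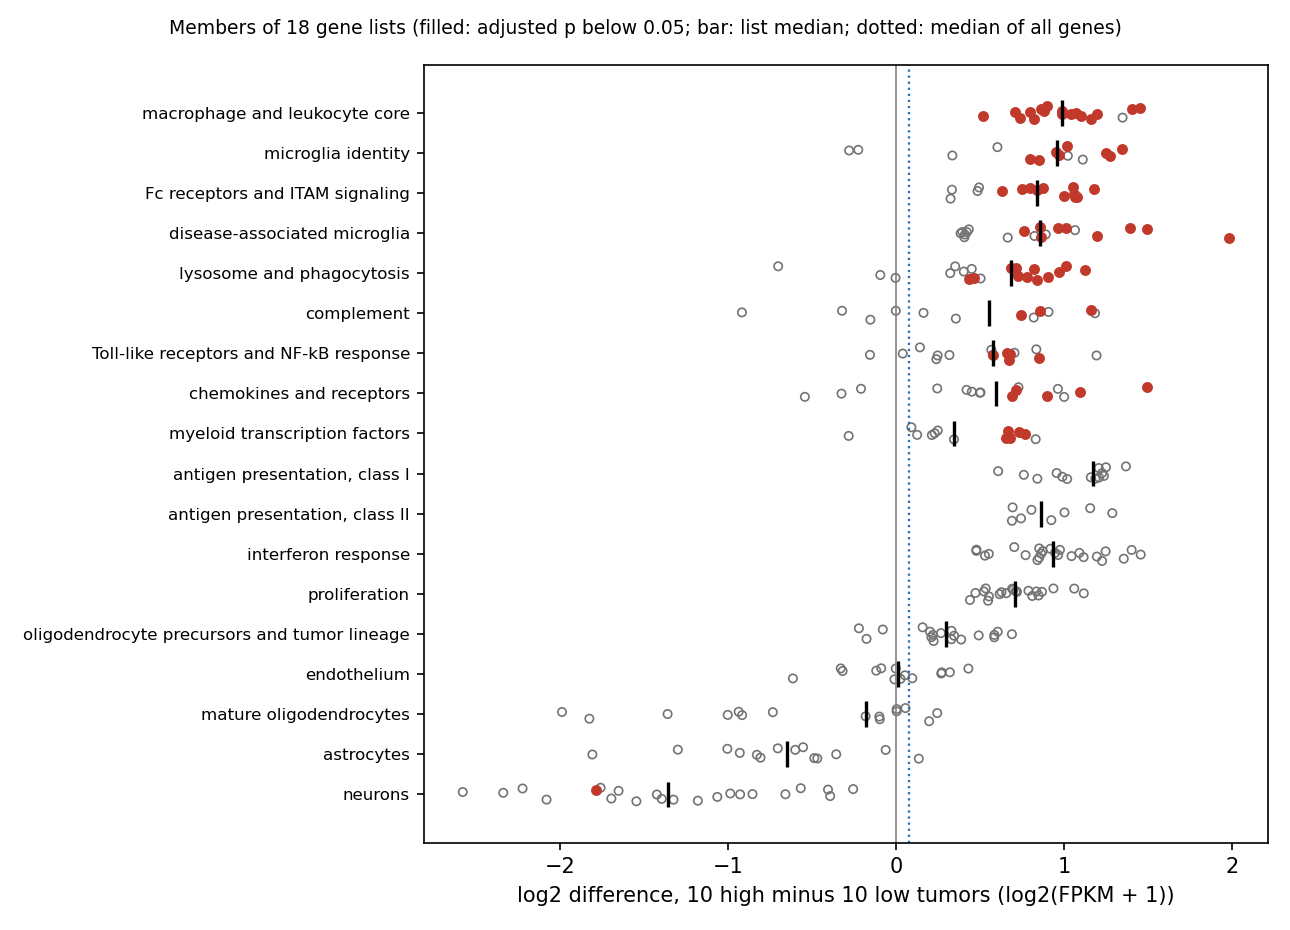
Log2 differences between high and low tumors (horizontal axis) of the tested members of 18 gene lists, with called genes filled, others open, a bar at each list's median and a dotted line at the median of all genes (0.08). Calls are concentrated in the macrophage lists, the antigen presentation and interferon lists lie to the right without a call, and the neuron list lies to the left with 1 call.

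Antigen presentation and interferon response genes had positive differences without a call. The 14 class I genes tested, which load and display peptides to T cells, all had positive differences (median 1.17), as did 8 class II genes (0.87) and 24 interferon response genes (0.93). In none did any gene pass. B2m, the light chain of class I molecules, came closest of those named, at 147, 661 and 1192 FPKM in the low and 391, 1347 and 1918 in the high tumors (1.25 ± 0.37; adjusted p = 0.0532), and passed in 5 of the 20 omissions. Psmb9, a subunit of the immunoproteasome, was at 10.6 and 23.6 in the medians (1.37 ± 0.50; adjusted p = 0.0892), and Cd74, the class II invariant chain, at 9.92 and 37.4 (1.29 ± 0.51; adjusted p = 0.111). The virus restriction factor Bst2 was at 76.4 and 156 (1.46 ± 0.53; adjusted p = 0.0909).

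The spread within a side was wide for these genes. Gbp2, an interferon-induced GTPase, ran from 2.97 to 265 FPKM in the low and from 15.8 to 847 in the high tumors (1.23 ± 0.71; adjusted p = 0.248), and the ubiquitin-like modifier gene Isg15 from 3.90 to 410 and from 8.25 to 264 (0.85 ± 0.69; adjusted p = 0.406). The lowest high tumor for B2m, Psmb9 and Gbp2 was WT-Tag tumor 9. Among the low tumors, WT-Tag tumor 29 had Cd74 at 153 FPKM, and the next highest low tumor stood at 4.89 on the log2(FPKM + 1) scale against its 7.27. The medians of the class I and interferon lists were 1.1 and 0.96 with the sides drawn without tumors 8 and 9, again with 0 calls.

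Genes of neurons ran the other way. All 22 tested had negative differences, with a median of −1.36, but the sides overlapped in every one and 1 passed. Slc17a7, the vesicular glutamate transporter VGLUT1, was at 0.194, 5.13 and 15.3 FPKM in the low and 0.189, 0.348 and 3.23 in the high tumors (−1.79 ± 0.43; adjusted p = 0.0237). Its call was lost with the neuron covariate (0.351), which is itself made of neuron genes, and without tumors 8 and 9 (0.296). Snap25, a protein of synaptic vesicle fusion, was at 7.72, 109 and 212 in the low and 1.63, 22 and 107 in the high tumors (−2.34 ± 0.74; adjusted p = 0.064). The neurofilament gene Nefh had the most negative difference of the list (59.5 against 11.2, −2.58 ± 0.77; adjusted p = 0.0544), and Slc17a6, the transporter VGLUT2, stood at 25.7 and 4.03 (−2.08 ± 0.64; adjusted p = 0.0591). The Snap25 levels set K27M tumor 24 apart on the high side, at 107 FPKM, and K27M tumor 15 and WT-Tag tumor 28 on the low side, at 7.72 and 10.7. The median of the list was −0.70 with the sides drawn without tumors 8 and 9 and −1.67 within K27M tumors, with 0 calls in both.

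Of the 12 genes with the largest differences among those called lower, Slc17a7 is the member of the neuron list. Pvalb, the calcium buffer of fast-spiking and Purkinje neurons, was at 1.40, 50.7 and 99.4 FPKM in the low and 0.518, 7.35 and 34.5 in the high tumors (−2.49 ± 0.71; adjusted p = 0.0497). The synaptic vesicle gene Sv2b (16.1 against 2.69, −1.83), the potassium channel subunit gene Kcnab2 (28.5 against 5.97, −1.79) and the calcium-binding protein gene Cabp7 (28.2 against 6.83, −1.68) were also called, with adjusted p of 0.04, 0.0456 and 0.0496. So were Trnp1, a nuclear regulator of cortical progenitors (−1.71), Sphkap, an anchor for protein kinase A (−1.65), Bend6 (−1.64), Itih3, a hyaluronan-binding protein (−1.59), the growth factor gene Fgf1 (−1.59) and the mitochondrial tRNA gene mt-Tw (−1.86). Most of these calls were close to the threshold. Pvalb, Cabp7 and Bend6 kept theirs in 4 of the 20 omissions, and with the neuron covariate the adjusted p of these genes lay between 0.249 for Sv2b and 0.575 for Pvalb. That covariate is itself made of neuron genes, so a loss of calls among genes of neurons is largely built in.

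Ajap1, a junction protein that binds basigin, and Hapln1 were steadier. Ajap1 was at 3.67, 6.94 and 32.4 FPKM in the low and 0.08, 2.26 and 7.65 in the high tumors (−1.58 ± 0.36; adjusted p = 0.0186) and kept the call in all 20 omissions, but not with the neuron covariate (−1.39; adjusted p = 0.189) or without tumors 8 and 9 (−1.37; adjusted p = 0.112). Hapln1, which links hyaluronan to proteoglycans in the matrix around neurons, is the 1 lower gene with no overlap and was chosen for mention for that reason. It was at 2.07, 2.80 and 7.11 FPKM in the low and 0.056, 0.66 and 1.91 in the high tumors (−1.3 ± 0.20; adjusted p = 0.000374), and kept its call in all 20 omissions and in 17 of the 18 other settings run on both genotypes or on K27M tumors. Those settings include the score without Csf1r, which repeats the main fit, and the scores without C1qb and without Tyrobp, which repeat each other. The call was lost with the score without Aif1 (adjusted p = 0.166), and also in the WT-Tag tumors alone (−1.06; adjusted p = 0.404), where 0 genes were called.

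Transcripts of the mitochondrial genome were lower as well, a family picked after its values were seen. Of 15 protein and ribosomal RNA genes 11 were called lower and all 15 were negative (median −0.67), and of 10 tRNA genes 4 were called. The abundant mt-Co1, a subunit of cytochrome oxidase, was at 3716, 4414 and 5964 FPKM in the low and 2489, 3212 and 3939 in the high tumors (−0.52 ± 0.12; adjusted p = 0.0244), and mt-Nd1 at medians of 1433 and 794 (−0.81 ± 0.17; adjusted p = 0.00941). The adjusted p of mt-Nd1 was 0.192 with the neuron covariate and 0.142 without tumors 8 and 9.

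Other cells of normal brain had no call. Of 14 astrocyte genes 13 were negative (median −0.65), with the connexin gene Gjb6 lowest (22.5 against 4.37 FPKM, −1.81 ± 0.60; adjusted p = 0.0702) and the filament gene Gfap at 239 and 165 (−0.49 ± 0.54; adjusted p = 0.551), which turned to 0.20 with the neuron covariate. With the neuron covariate the list's median was 0.14. A separate list of reactive astrocytes went the other way, with 12 of 15 genes positive (median 0.18) and 0 calls. Of 15 genes of mature oligodendrocytes 10 were negative (median −0.18), among them the myelin genes Mobp (102 against 24.7, −1.99 ± 0.63; adjusted p = 0.0627) and Mbp (212 against 97.8, −1.0 ± 0.39; adjusted p = 0.104). Genes of the vessel wall were evenly split, with 7 of 14 endothelial genes positive and 7 negative (median 0.01, and −0.02 with upper quartile scaling), and with the growth factor receptor Kdr highest (0.43 ± 0.25; adjusted p = 0.247) and the junction gene Cldn5 at 14.4 and 17 FPKM (0.27 ± 0.16; adjusted p = 0.263). Hemoglobin genes, a sign of blood in the piece, had positive differences in 4 of 4 (median 1.41), with Hbb-b1 at medians of 1.18 and 4.67 FPKM and up to 185 in a high tumor (1.69 ± 0.83; adjusted p = 0.18). Their part in the results was not tested.

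Lists for the tumor lineage and for proliferation held no call, and those for progenitors and hypoxia held 1 each. RNA of a whole piece does not tell which cells these transcripts came from. Of 18 genes of oligodendrocyte precursors and the tumor lineage 15 were positive (median 0.30) and 0 passed. Pdgfra, the mouse gene of the receptor that the model expresses in an altered form, was at 33.5, 111 and 337 FPKM in the low and 40.2, 145 and 335 in the high tumors (0.16 ± 0.42; adjusted p = 0.82), and Olig2, a transcription factor of the lineage, at 50.8 and 71.4 (0.39 ± 0.33; adjusted p = 0.431). With the neuron covariate both differences were negative, −0.74 and −0.16. H3f3a, the gene with the knock-in allele, was at 47.9 and 68.0 (0.37 ± 0.19; adjusted p = 0.196). All 22 proliferation genes had positive differences (median 0.71) with 0 calls, where 59.8% of all genes were positive. With the neuron covariate 13 of the 22 were positive (median 0.02, against 0.03 for all genes). Mki67 was at 9.78 and 19.1 FPKM (0.72 ± 0.39; adjusted p = 0.22), and the mitotic kinesin gene Kif20a at 2.18 and 5.45 (1.12 ± 0.51; adjusted p = 0.153). Of 15 stem and progenitor genes Sox11 was called higher (14.2 against 30.6, 0.85 ± 0.24; adjusted p = 0.0458), and of 13 hypoxia genes Hk2, the first enzyme of glycolysis (5.19 against 11.5, 0.78 ± 0.20; adjusted p = 0.0329). Both calls were lost with the neuron covariate (0.432 and 0.147).

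Some genes with large differences were on no list used here. Cd52, a small glycoprotein on the surface of leukocytes, showed no overlap, at 1.62, 4.08 and 5.68 against 8.75, 13.3 and 18.9 FPKM (1.63 ± 0.17; adjusted p = 3.49e-05). Bin2, a membrane-bending protein of blood cells (2.63 against 8.79, 1.3 ± 0.27), and Npl, an enzyme of sialic acid breakdown (12.1 against 35.6, 1.29 ± 0.27), kept their calls in all 20 omissions but not with the neuron covariate (adjusted p = 0.144 and 0.202). Ccnd2, the cell cycle gene for cyclin D2, was at 2.53, 17.5 and 42.0 in the low and 25.6, 50.1 and 91.0 in the high tumors (1.39 ± 0.38; adjusted p = 0.04). The cultures, where the score genes were near 0, reached 194 FPKM for Ccnd2, and it kept the call in 8 of 20 omissions. Cnpy1, a gene of the midbrain and hindbrain boundary, was at 0.891 and 6.31 in the medians (1.49 ± 0.43; adjusted p = 0.0496), and En2, which marks the same boundary, at 1.01 and 3.74 (0.90 ± 0.28; adjusted p = 0.0625). The call of Cnpy1 was lost with the genotype covariate (0.0733).

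The genes most like the score over all 29 tumors were myeloid signaling genes. Among the 10 with the highest Pearson r were AF251705 (0.95), Cd37 (0.95), Nckap1l (0.95), Inpp5d (0.94), Cd52 (0.93), Vav1 (0.93), Ikzf1 (0.92), Was (0.92) and Itgam (0.92), where Cd37 encodes a tetraspanin of leukocytes and Nckap1l and Was encode regulators of actin in blood cells. Each r is a description over 29 tumors, of which 20 made the sides and whose relative depth ran from 0.429 to 1.80. Within the 20 K27M and the 9 WT-Tag tumors, Cd52 had r of 0.91 and 0.98 and Itgam 0.93 and 0.90. Within the 9 middle tumors, whose scores span a narrow range, r was 0.75 for Cd37, 0.33 for Itgam, 0.01 for Ctss and −0.26 for Inpp5d. There r was positive for some lower genes, 0.96 for Slc17a7, 0.75 for Sv2b, 0.75 for Sphkap and 0.74 for Pvalb. Over 29 tumors it was −0.48, −0.47, −0.43 and −0.42 for these genes, in that order. Other lower genes differed within the middle tumors, with r of 0.06 for Ajap1 and of −0.14 and −0.47 for called lower genes not named here. Over 29 tumors r was 0.72 for P2ry12, 0.77 for Tmem119, 0.68 for B2m and −0.41 for Snap25.

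The direction was the same in both genotypes for the 4 genes given here. Both fits used tumors of the sides already compared, so this is a description. Within K27M tumors (5 against 7) the log2 difference was 1.56 for Itgam, 1.28 for C1qc, 1.28 for Cx3cr1 and 2.26 for Cst7, and within WT-Tag tumors (5 against 3) it was 1.25, 1.00, 1.42 and 1.61. The fit on WT-Tag tumors alone, added after the data were seen, called 0 genes by limma, with 1275 at an unadjusted p below 0.05 and a smallest adjusted p of 0.324. Whether the slope of a gene on the score differed between K27M and WT-Tag tumors was tested over all 29 tumors. Limma called 0 of 15355 genes (0%), with 533 at an unadjusted p below 0.05 and a smallest adjusted p of 0.999. Without tumors 8 and 9 it also called 0, with 786 at an unadjusted p below 0.05 and a smallest adjusted p of 0.21.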

How the data were processed

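Per the labels' protocols, stranded libraries were made from total RNA of snap-frozen tumor pieces (TruSeq). The submitters' processing notes name CASAVA, TopHat2, STAR and the build mm9; no source used here names the counter or annotation. Values were deposited as FPKM in 1 table with 34591 entries, of which 974 were 0 in every library. No raw counts were used, so relative depth was recovered from the steps between low values of 3196 rarely detected genes.

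Genes at 1 FPKM or more in at least 9 of the 29 tumors, other than the 5 score genes, were tested with limma 3.58.1 (R 4.3.3) on log2(FPKM + 1), with an intensity trend and Benjamini-Hochberg adjustment over all 15355 genes at 0.05. A difference is thus on the log2(FPKM + 1) scale, which understates changes of low genes, and ± beside it is the standard error. The fit used the 20 tumors of both sides with no covariate. The script was tested on simulated data. Score by genotype was compared by a permutation test and the make-up of the sides by Fisher's exact test (Python 3.11.15, scipy 1.17.1). Alternatives were another pseudocount, other filters, covariates, scalings, scores and sides, and leaving out each tumor.

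The members and the gene lists (35 lists, 552 of 557 members found) were chosen with earlier results of these data known. Named by rule were the score genes, the 12 largest called differences each way, the highest, lowest and most abundant member of each list, the 10 genes most like the score and a fixed set of marker genes; some genes that it names are not reported here. The naming of Emr1, Lyz2, Gpr34, Fcgr1, Ptpn6, C3ar1, Cyba, Cybb, Npc2, Clec7a, Ctsz, Ctsd, Spp1, Ccr1, Tlr7, Havcr2, 4632428N05Rik, Irf5, Csf2rb, S100a6, S100a8, Isg15, Slc17a6, Cldn5 and Sox11 was chosen after their values were seen, as was that of Hapln1 and the mitochondrial genes. The same holds for Trac, Cd3d, Cd3g and Cd8a.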

Additional observations from a re-analysis of the deposited data

Results flagged for a closer look

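A tumor was listed here when it stood apart from the other 9 of its side by Dixon's criterion on log2(FPKM + 1), which chance meets in about 1 in 20 groups. It was met in 24 of 237 groups tested (10.1%).

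WT-Tag tumor 9, whose sex-linked transcripts go against its label, made up the largest share. It was the lowest of the high tumors for Csf1r (4.229, with the next tumor at 4.751), Cx3cr1 (3.833), AF251705 (2.945), Ctss (7.315), P2ry12 (2.015, next 3.202), Csf1 (3.476) and Havcr2 (2.644). It was also the lowest for B2m (8.616, next 9.955), Psmb9 (1.787) and Gbp2 (4.072, next 7.199). For Cd68 it was the highest, at 5.082 with the next tumor at 4.53.

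Among the other high tumors, K27M tumor 3 was highest for the mitotic gene Kif20a (6.627, next 3.912) and for Cd3e (0.2998, next 0.103) and lowest for Npc2 (5.496). K27M tumor 23 was highest for the neutrophil gene Ly6g (0.3707).

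Among the low tumors, WT-Tag tumor 29 was highest for Cd74 (7.27, next 4.888) and Ccr2 (1.285, next 0.4792). WT-Tag tumor 28 was lowest for Trnp1 (1.678, next 3.614) and Gfap (5.752) and highest for Lyz2 (6.554). K27M tumor 15 was highest for Csf2rb (2.318), S100a8 (3.174, next 0.7373) and Hapln1 (3.02, next 2.338), and K27M tumor 25 was the only low tumor with Ly6g above 0 (0.1349).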

How the results depend on the processing

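The counts of called genes depended on the tumors and covariates more than on pseudocount and scaling. The counts of higher and lower genes, 407 and 258 as reported, were 117 and 3 with the neuron score as a covariate, 192 and 42 with relative depth, 107 and 9 within K27M tumors, 0 and 0 within WT-Tag tumors, 265 and 36 for 8 tumors against 8, and 135 and 4 without WT-Tag tumors 8 and 9. Leaving Aif1 out of the score gave 222 and 22, and leaving out C1qb or Tyrobp gave the same fit, with 197 and 12. Leaving out Csf1r gave the same sides as the main fit and thus the same counts. The higher count stayed within 1.5 times of the reported one, and the lower count did not, without a filter (93 lower), with a genotype covariate (92) or a sex label covariate (97), with the continuous score over 29 tumors (127) and with a score without C1qa (84). Omitting 1 tumor at a time gave 219 to 1578 higher and 58 to 1453 lower genes. Fewer tumors entered the fits within a genotype, the fit of 8 against 8 and each omission. The cause of the changes in count was not tested.

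Of 106 genes named and tested, 67 were called, and none of these changed sign. The sign turned for 8 uncalled genes. With the neuron covariate Gfap was at 0.20, Olig2 at −0.16, Pdgfra at −0.74, Mki67 at −0.12 and H3f3a at −0.10. With a score without Aif1, Il34 was at 0.0487, Gfap at 0.21, Olig2 at −0.0733 and Pdgfra at −0.14. Ccl2 was at −0.12 without C1qb or Tyrobp in the score. Within WT-Tag tumors Il34 was at 0.21, Cst3 at 0.0788, Olig2 at −0.0018 and Pdgfra at −0.34, and without tumors 8 and 9 Gfap was at 0.10, Cst3 at 0.0045 and Pdgfra at −0.21. Omitting K27M tumor 23 or 3 put Il34 at 0.0023 or 0.0340 (range over omissions −0.153 to 0.0340), and omitting K27M tumor 16 put Pdgfra at −0.0424 (range −0.0424 to 0.347).

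The score by genotype and the make-up of the sides kept their side of the threshold under each alternative run (differences in score from −0.06 to −0.24), and the test of slopes called 0 genes in each. No paired analysis was possible because K27M and WT-Tag tumors share no replicate number and the sides were made from measured scores. Read counts are not in the values used, so the precision of low FPKM values is unknown.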
